A study of Mus musculus with 56 samples.

Results

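The proteasome subunit genes are the protein-coding genes whose mouse symbol starts with Psma, Psmb, Psmc, Psmd or Psme followed by a digit, without the immunoproteasome genes Psmb8, Psmb9 and Psmb10. Of 47937 genes in the count tables, 41 were members. Psme2b also has such a symbol and was left out, because it held 2287 counts in one table and 0 in the other. By role the members were 7 α and 7 β subunits of the 20S core, 6 ATPases and 11 non-ATPase subunits of the 19S cap, 3 chaperones of cap assembly, 4 activators, 2 core subunits known from testis or thymus, and 1 gene that is no proteasome subunit. This last gene is Psmc3ip, a factor of meiotic recombination that shares the start of its symbol with the ATPases. The testis subunit Psma8 held 72 counts over all libraries of one table and 89 over the other, and the thymus subunit Psmb11 held 0 in both. Neither passed the filter on low counts, so 39 members were tested.

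The cells were CD4+ T cells from spleen and lymph node of C57BL/6 mice, naive cells by the study's methods, which were purified by negative selection and cultured for 4 days with anti-CD3, anti-CD28 and IL-2. TH1 cultures also received IL-12 and anti-IL-4, TH2 cultures IL-4 and anti-IFN-γ, TH17 cultures IL-6, TGF-β and IL-1β with both antibodies, and Treg cultures TGF-β with both antibodies. Mice labelled Odc-/- or Dohh-/- carried loxP-flanked alleles (Odc flox/flox or Dohh flox/flox) and CD4Cre, a Cre recombinase driven by the Cd4 promoter, and WT mice had no Cre. ODC, ornithine decarboxylase, makes the polyamine putrescine, and DOHH, deoxyhypusine hydroxylase, completes hypusine on the translation factor eIF5A from a part of spermidine. The Odc table held 16 WT and 15 Odc-/- libraries, 4 per subset except 3 from Odc-/- TH2 cells, and the Dohh table held 12 WT and 12 Dohh-/- libraries, 3 per subset. The series describes them as biological replicates, and the labels give no age. The Cd4 promoter is also active in thymocytes that become CD8 T cells.

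The 26S proteasome degrades proteins that carry ubiquitin chains. Its barrel-shaped 20S core is built from rings of α subunits, which gate the entry, and rings of β subunits, of which β1, β2 and β5 cut peptide bonds, and the 19S cap binds ubiquitin, removes it and threads the substrate into the core with its ATPase ring. Dividing T cells rely on it for the turnover of cell cycle and signalling proteins, and ODC itself is one of the few proteins that the proteasome degrades without ubiquitin, through antizyme.

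Libraries of the Odc table held 5905374 to 9145214 counts in total, and libraries of the Dohh table held from 6572148 to 12576933. Expression is given as CPM, read counts scaled to each library after TMM normalization. The counts cover whole genes, deleted exons and the rest together, and so they do not check the deletion. Odc1 lay at 423.7 to 679.8 CPM in Odc-/- and at 356.6 to 859.9 CPM in WT libraries, and Dohh at 45.2 to 147.7 CPM in Dohh-/- and at 31.5 to 45.9 CPM in WT libraries. The ranges of both genes overlapped with WT, for Dohh within TH17 cells (45.24 to 65.54 against 35.02 to 45.85 CPM). In the other subsets Dohh was higher in Dohh-/- libraries, with means of 99.49 (TH1), 84.14 (TH2) and 83.83 CPM (Treg) against 36.83, 39.16 and 37.79 CPM in WT. Dohh also lay at 51.56 to 97.87 CPM in Odc-/- against 24.56 to 48.68 CPM in WT libraries of the Odc table. Odc-/- and Dohh-/- therefore stand below for libraries with that label. In WT libraries the summed TH1, TH2 and TH17 markers were each highest in the subset of that name in both tables. The 3 Treg markers (Foxp3, Il2ra and Ikzf2) were not. They summed to 2923 to 3816 CPM in WT Treg and to 3348 to 4577 CPM in WT TH1 libraries of the Odc table. In the Dohh table these sums were 1631 to 2041 CPM in WT Treg and 2386 to 2747 CPM in WT TH1 libraries. Foxp3, the factor that defines Treg cells, stood at 393.1 to 638.8 and 554.1 to 588.8 CPM in WT Treg libraries of the Odc and Dohh tables, at 311.6 to 516.8 CPM in Odc-/- and at 61.6 to 178.5 CPM in Dohh-/- Treg libraries. Markers of other cells moved with the labels. The 6 T cell markers (Cd3e, Cd3d, Cd3g, Cd4, Cd2 and Cd28) summed to 1115 to 2412 CPM in Dohh-/- libraries against 2817 to 3243 CPM in WT. In the Odc table they summed to 1295 to 2829 CPM in Odc-/- libraries against 1901 to 3685 CPM in WT. The 6 myeloid markers (Lyz2, Csf1r, Cd14, Itgam, Adgre1 and Fcgr1) reached 4439 CPM in Dohh-/- TH17 cells, with Itgam at 0, against at most 20.02 CPM in WT. The 5 basophil or mast cell markers (Mcpt8, Prss34, Ms4a2, Cpa3 and Fcer1a) reached 948.2 CPM in the same group against at most 2.02 CPM. The 5 CD8 or NK cell markers (Cd8a, Cd8b1, Ncr1, Klrb1c and Klrk1) reached 655.9 CPM in Dohh-/- Treg cells against at most 36.5 CPM. In the Odc table they summed to 323.9 to 508.5 CPM in Odc-/- Treg libraries against 22.84 to 55.94 CPM in WT. In TH2 cells of that table they overlapped, at 18.82 to 23.82 CPM against 15.33 to 26.68 CPM. The myeloid markers reached 321.9 CPM in Odc-/- Treg cells against at most 30.18 CPM. The basophil or mast cell markers reached 279.4 CPM in Odc-/- TH17 cells against at most 13.91 CPM. Negative selection for CD4+ T cells is meant to remove such cells before the culture. Their part in the results below was not tested. In such bulk samples fewer cells of a type and less RNA per cell cannot be told apart.

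The promoters shown here for the motifs they hold are those of Psmc3ip, Psmc5 and Psmd13, the 3 members with the largest mean log2 fold change, of Psme4 and Psme1, which have the smallest among members with a promoter at hand that passed in at least 4 of the 8 comparisons, and of the catalytic subunits Psmb5 and Psmb6. RefSeq promoters of GRCm38.p6 were at hand for 34 of the 41 members. Each line gives 150 bases that end just before the start site, 5′ to 3′ on the strand of the gene. Capitals mark TGACNNNGC, the core of the antioxidant response element to which NRF1, the activator of proteasome genes, can bind, and CCGGAA, the core of the site of ETS factors, both searched on either strand.
Psmb5, chr14:54617996-54618145, minus strand: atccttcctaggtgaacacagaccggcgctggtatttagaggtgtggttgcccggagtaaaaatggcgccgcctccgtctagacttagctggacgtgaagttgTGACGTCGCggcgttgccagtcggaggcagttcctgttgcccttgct
Psmb6, chr11:70525207-70525356, plus strand: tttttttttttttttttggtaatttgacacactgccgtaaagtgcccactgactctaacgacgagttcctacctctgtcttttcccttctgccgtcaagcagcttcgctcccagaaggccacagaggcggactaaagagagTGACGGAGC
Psmc5, chr11:106256035-106256184, plus strand: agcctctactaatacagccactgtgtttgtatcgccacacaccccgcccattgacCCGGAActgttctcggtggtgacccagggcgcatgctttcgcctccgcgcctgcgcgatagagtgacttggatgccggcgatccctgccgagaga
Psmd13, chr7:140882244-140882393, plus strand: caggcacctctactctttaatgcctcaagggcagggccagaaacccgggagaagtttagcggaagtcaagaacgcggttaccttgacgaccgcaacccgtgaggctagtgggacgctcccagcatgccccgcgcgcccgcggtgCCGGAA
Psmc3ip, chr11:101095436-101095585, minus strand: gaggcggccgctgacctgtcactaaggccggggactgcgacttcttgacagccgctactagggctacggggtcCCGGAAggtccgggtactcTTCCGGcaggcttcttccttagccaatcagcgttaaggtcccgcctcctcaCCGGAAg
Psme1, chr14:55578344-55578493, plus strand: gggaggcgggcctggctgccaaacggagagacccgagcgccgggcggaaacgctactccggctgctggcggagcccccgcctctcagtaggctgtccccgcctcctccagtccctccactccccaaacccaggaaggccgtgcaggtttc
Psme4, chr11:30771625-30771774, plus strand: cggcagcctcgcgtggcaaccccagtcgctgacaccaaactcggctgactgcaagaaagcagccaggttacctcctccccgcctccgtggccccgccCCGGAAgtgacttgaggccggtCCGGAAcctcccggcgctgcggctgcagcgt
In Psmb5 the TGACNNNGC match lay at -47 to -39 and in Psmb6 at -9 to -1, where -1 is the base before the start site. A TGACNNNGC match of Psme4 lay at -7 to 1 on the other strand and so runs past the end of its line. Psmc5 had 1 CCGGAA, Psmc3ip 3, Psmd13 1 that touched the start site and Psme4 2, and the Psme1 line had neither motif.

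In the window from 250 bases before to 50 bases after the start, CCGGAA was in 17 of the 34 member promoters, or 50%, against 15.2% of 27025 promoters with 1 per gene. The 27025 include genes that were not tested here, and the share among tested genes alone is not given. Where a gene had more than 1 promoter, the one nearest the gene start was taken for members and the first listed for other genes. TGACNNNGC was in 6 members, or 17.6%, against 12.5% of all promoters. These were Psmb5, Psmb6, Psmc6, Psmd9, Psmd12 and Psme4. CCAAT, the core of the site of NF-Y, was in 14 members, or 41.2%, against 37.9%, and the AP-1 site TGACTCA in 1 member, Psmd9, or 2.94%, against 5.17%. No TGACNNNGC match overlapped a TGACTCA match. The members tested with CCGGAA had a median of 0.86 for the mean log2 fold change over the 8 comparisons, and those without it 0.89. With and without TGACNNNGC the medians were 0.80 and 0.87. A match describes letters only. The members that hold them included both Psmc5, which had the second largest mean change, and Psme4, which had the smallest.

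To ask whether proteasome genes differ between deficient and WT cells, each Odc-/- or Dohh-/- group was compared with the WT libraries of its table and subset in 8 comparisons. A gene rose or fell when its adjusted p in edgeR's quasi-likelihood test was below 0.05. Nearly all members that passed rose. In Odc-/- TH1 cells 35 of 39 members rose and 1 fell, where 29.1% of 13839 genes tested rose and 27.7% fell. In Odc-/- TH2 cells 34 rose and 1 fell (29.9% and 29.3% of all genes). In Odc-/- TH17 cells 27 rose and 1 fell (25.6% and 22.2%). In Odc-/- Treg cells 28 rose and 1 fell (32.9% and 26.9%). The gene that fell was Psme4 each time.

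The Dohh-/- cells showed the same direction. In Dohh-/- TH1 cells 38 of 39 members rose and 0 fell, where 25.9% of 13897 genes tested rose and 24.1% fell. In Dohh-/- TH2 cells 31 rose and Psme4 fell (23.8% and 21.5% of all genes). In Dohh-/- TH17 cells 28 rose and 0 fell (27.0% and 24.9%). In Dohh-/- Treg cells 31 rose and 0 fell (28.4% and 25.0%). In the 3 comparisons with a count of 0, edgeR gave 0 lower members at an unadjusted p below 0.05, and DESeq2 also gave 0. The median log2 fold change of the members was 0.74, 0.77, 0.46 and 0.43 in Odc-/- TH1, TH2, TH17 and Treg cells, against -0.00193 to 0.0731 for all genes. In Dohh-/- cells it was 1.23, 0.90, 0.80 and 0.93, against 0.01 to 0.03 for all genes.

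**Figure D1:**
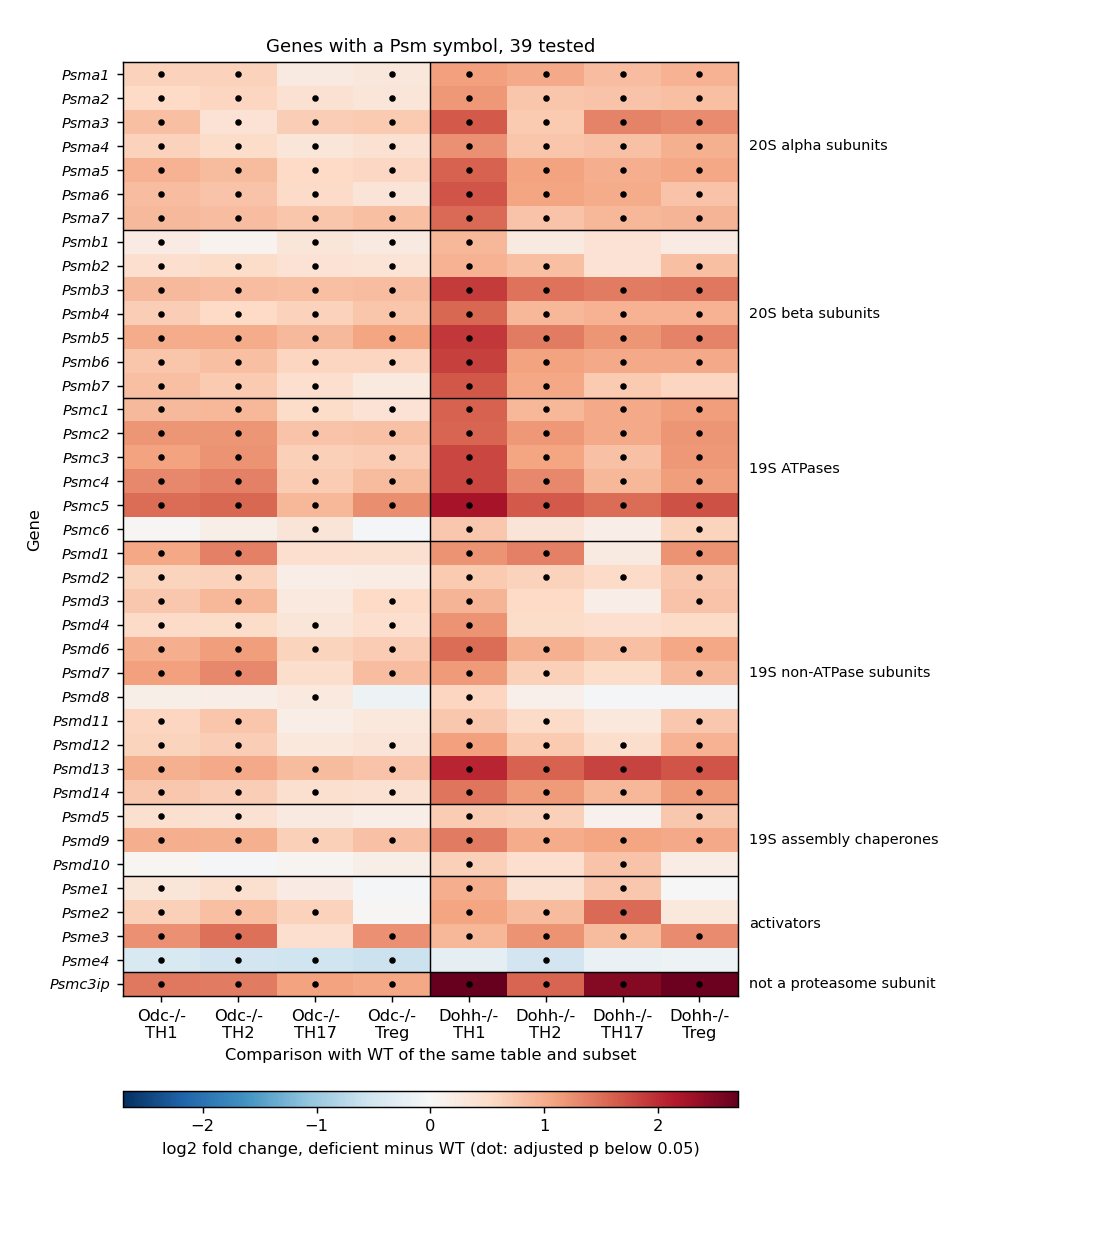
Log2 fold change (color, deficient minus WT) of the 39 tested members (vertical axis, grouped by role) in the 8 comparisons (horizontal axis), with a dot where the edgeR adjusted p was below 0.05. The Dohh-/- TH1 column has 38 dots, all higher, and Psme4 is the member that lies below 0 in all 8 columns.

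Of the 39 members, 20 rose in all 8 comparisons (51.3%, against 6.1% of the 12924 genes tested in both tables), 4 rose in 7, 4 in 6, 5 in 5, 2 in 4, 1 in 3 and 2 in 2. Psme4 was the remaining member and rose in none. Changes above 2-fold, the threshold of the study, were fewer. Above 2-fold, 8 members rose in Odc-/- TH1 cells (10.2% of all genes), 11 in TH2 (11.5%), 1 in TH17 (8.35%) and 4 in Treg cells (13.9%). None fell by as much, where 11.3%, 13.6%, 7.21% and 10.1% of all genes did. In Dohh-/- cells 27 rose above 2-fold in TH1 (14.8%), 17 in TH2 (14.3%), 11 in TH17 (17.3%) and 17 in Treg cells (17.5%), and none fell by as much (14.2%, 11.6%, 14.1% and 15.2%). The highest count stood in Dohh-/- TH1 cells and the lowest in Odc-/- TH17 cells, where the 1 member was Psmc3ip. Every WT library lay below every deficient library for 29, 35, 22 and 18 members in the Odc table (TH1, TH2, TH17 and Treg), against 21.9%, 30.6%, 21.5% and 25.2% of all genes, and every WT library lay above for 1 member in each, Psme4, against 21.5%, 30.5%, 19.6% and 20.6% of all genes. In the Dohh table this held for 33, 35, 30 and 33 members, against 23.7%, 31.9%, 29.9% and 34.3%, and the reverse held for Psme4 in TH1 and TH2 cells (27.0% and 30.5%).

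The share of each library that fell on the 41 genes was compared without a model. Among TH1 libraries of the Odc table it was 0.385% to 0.543% in WT and 0.576% to 0.766% in Odc-/-. In TH2 cells it was 0.414% to 0.552% against 0.754% to 0.810%, in TH17 cells 0.439% to 0.599% against 0.592% to 0.709%, and in Treg cells 0.429% to 0.636% against 0.627% to 0.735%. The ranges overlapped in TH17 and Treg cells and not in TH1 and TH2 cells. In the Dohh table the share was 0.389% to 0.469% in WT and 0.584% to 1.07% in Dohh-/- TH1 libraries, 0.420% to 0.478% against 0.690% to 0.884% in TH2, 0.413% to 0.445% against 0.700% to 0.756% in TH17, and 0.466% to 0.527% against 0.782% to 0.884% in Treg cells. None of these 4 pairs of ranges overlapped.

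**Figure D2:**
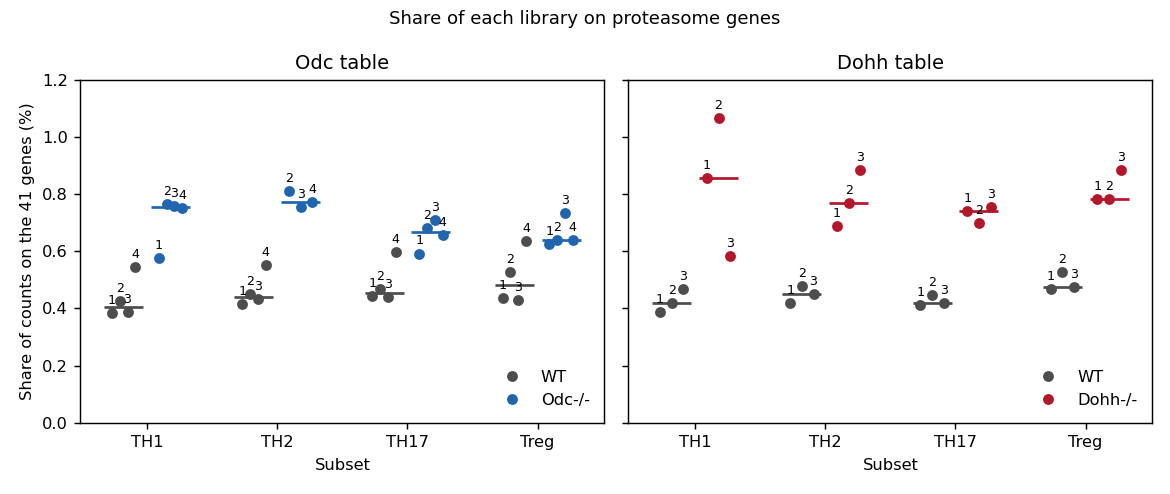
Share of each library's counts on the 41 genes (vertical axis, percent) by subset (horizontal axis) for WT, Odc-/- and Dohh-/- libraries, each point a library with its replicate number and each bar the group's median. The WT library numbered 4 is the highest WT library of the Odc table in all 4 subsets, at 0.543% to 0.636%.

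Single libraries stood apart in both tables. The WT library numbered 4 of the Odc table held the highest WT value for 36, 38, 37 and 34 of the 39 members in TH1, TH2, TH17 and Treg cells. It also had the lowest summed T cell markers of the WT libraries in each subset. Without these 4 libraries, chosen after the data were seen, 36, 35, 36 and 33 members rose in TH1, TH2, TH17 and Treg cells, against 31.0%, 31.3%, 29.5% and 35.5% of all genes in the same fit, and the median log2 fold changes were 0.92, 0.89, 0.63 and 0.60. In Dohh-/- TH1 cells, the library numbered 2 held the highest value for 35 of the 39 members and the library numbered 3 the lowest for 34. The Dohh-/- TH17 and Treg libraries numbered 2 and 3 held most of the myeloid RNA. Without these 4, 15 members rose in TH17 and 18 in Treg cells, against 13.7% and 15.3% of all genes in the same fit, where each group then has 1 library that is assumed to vary like the other groups, and the medians were 0.90 and 0.81.

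The α subunits form the outer rings of the core, and their tails close the gate. They moved nearly as a block, with 55 of 56 tests higher over the 7 genes and 8 comparisons, where 27.8% of the tests of all genes were higher over the same 8 comparisons, and the median log2 fold change was 0.42 to 0.82 in Odc-/- and 0.78 to 1.53 in Dohh-/- cells. The 1 test that did not pass was Psma1 in Odc-/- TH17 cells, at 0.24. In Dohh-/- TH1 cells all 7 rose above 2-fold, from 1.11 for Psma1 to 1.695 for Psma6, and between them lay Psma2 at 1.16, Psma4 at 1.23, Psma7 at 1.53, Psma5 at 1.58 and Psma3 at 1.65. Psma3, or α7, passed in all 8. It rose by 0.82, 0.67 and 0.70 on the log2 scale in Odc-/- TH1, TH17 and Treg cells but by 0.40 in TH2 cells, and by 0.71 in Dohh-/- TH2 cells against 1.35 in TH17 cells. The test of whether the effect on Psma3 differed between subsets did not pass, with edgeR adjusted p-values of 0.406 in the Odc and 0.112 in the Dohh table, although the Odc value was 0.021 with the replicate number as a block within each genotype. The values of Psma7, or α4, ran within a narrow range in Odc-/- cells, from 0.75 to 0.87.

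The β subunits form the inner rings, and 49 of their 56 tests were higher (27.8% of the tests of all genes). All 7 rose in TH1 cells of both tables, and the 7 tests that did not pass were those of Psmb1 in Odc-/- TH2 and in Dohh-/- TH2, TH17 and Treg cells, of Psmb2 in Dohh-/- TH17 cells, and of Psmb7 in Treg cells of both tables. The structural subunit Psmb3, or β3, changed from 0.82 to 0.87 in Odc-/- cells and from 1.41 to 1.88 in Dohh-/- cells on the log2 scale and passed in all 8 comparisons. Psmb4, or β7, also passed in all 8, from 0.53 to 1.56. Psmb2, or β4, lay at 0.36 to 0.50 in Odc-/- and 0.39 to 0.94 in Dohh-/- cells.

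Psmb5 encodes β5, which carries the chymotrypsin-like activity of the core (ENSMUSG00000022193.6, chr14:54614119-54618022, minus strand, GRCm38). In TH1 cells, Psmb5 stood at 51.1, 60.7, 59.4 and 100.4 CPM in the WT and at 95.9, 149, 146 and 150.2 CPM in the Odc-/- libraries of the Odc table. In TH2 cells, Psmb5 stood at 52.9, 72.6, 64.02 and 81.6 CPM in the WT and at 139, 138 and 132 CPM in the Odc-/- libraries of the Odc table. In TH17 cells, Psmb5 stood at 59.04, 69.3, 61.8 and 87.5 CPM in the WT and at 109, 109.9, 152 and 138 CPM in the Odc-/- libraries of the Odc table. The Odc-/- library numbered 1 lay below the WT library numbered 4 in TH1 cells, and in TH2 and TH17 cells the groups did not overlap. In Treg cells, Psmb5 stood at 42.3, 55.9, 43.7 and 86.3 CPM in the WT and at 112, 96.5, 166 and 101 CPM in the Odc-/- libraries of the Odc table. Psmb5 had log2 fold changes (± SE) of 0.995 ± 0.22 in TH1 cells, 1.01 ± 0.24 in TH2 cells, 0.87 ± 0.22 in TH17 cells and 1.06 ± 0.22 in Treg cells of the Odc table, with edgeR adjusted p-values of 0.000497, 0.000693, 0.00236 and 0.00022. Psmb5 thus rose in all 4 subsets, above 2-fold in TH2 and Treg cells. In TH1 cells of the Dohh table, Psmb5 was measured at 64.6, 63.9 and 63.4 CPM in WT and at 221, 370.5 and 127 CPM in Dohh-/- libraries. Psmb5 in the Dohh table stood at 67.3, 81.2 and 64.9 CPM in WT and 167, 193 and 207 CPM in Dohh-/- TH2 libraries. The Dohh-/- TH1 libraries spread over a wide range, and the groups did not overlap. For TH17 cells of the Dohh table the values of Psmb5 were 67.3, 74.8 and 75.8 CPM in WT and 178, 152 and 166 CPM in Dohh-/- libraries. Among Treg libraries of the Dohh table, WT held Psmb5 at 60.6, 94.2 and 74.1 CPM and Dohh-/- at 176, 189 and 217 CPM. Dohh-/- against WT gave Psmb5 log2 fold changes of 1.904 ± 0.25 in TH1 cells, 1.41 ± 0.24 in TH2 cells, 1.19 ± 0.24 in TH17 cells and 1.35 ± 0.24 in Treg cells, with edgeR adjusted p-values of 3.87e-06, 0.000103, 0.000415 and 0.000102. All 4 of these changes were above 2-fold.

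Psmb6 encodes β1, the subunit that cuts after acidic residues (ENSMUSG00000018286.6, chr11:70525367-70527858, plus strand). In TH1 cells, Psmb6 stood at 104, 102, 105 and 157 CPM in the WT and at 151, 207, 207 and 219.7 CPM in the Odc-/- libraries of the Odc table. In TH2 cells, Psmb6 stood at 93.5, 109.9, 105 and 135 CPM in the WT and at 195, 202 and 184 CPM in the Odc-/- libraries of the Odc table. In TH17 cells, Psmb6 stood at 92.5, 97.9, 88.8 and 123 CPM in the WT and at 133, 144, 179 and 144 CPM in the Odc-/- libraries of the Odc table. Here the groups overlapped by 1 library in TH1 cells and did not overlap in TH2 and TH17 cells. In Treg cells, Psmb6 stood at 91.3, 110.5, 101 and 136 CPM in the WT and at 159, 134, 218 and 147 CPM in the Odc-/- libraries of the Odc table. Psmb6 had log2 fold changes (± SE) of 0.74 ± 0.16 in TH1 cells, 0.80 ± 0.17 in TH2 cells, 0.58 ± 0.16 in TH17 cells and 0.59 ± 0.16 in Treg cells of the Odc table, with edgeR adjusted p-values of 0.00037, 0.00029, 0.00497 and 0.00284. Psmb6 rose in each subset by less than 2-fold, with overlap in Treg cells. In TH1 cells of the Dohh table, Psmb6 was measured at 89.2, 99.8 and 106 CPM in WT and at 286, 599 and 169.6 CPM in Dohh-/- libraries. Psmb6 in the Dohh table stood at 97.7, 125 and 108 CPM in WT and 219.7, 228 and 257 CPM in Dohh-/- TH2 libraries. In TH1 cells the Dohh-/- library numbered 2 was the highest and the library numbered 3 the lowest, and both lay above all WT libraries. For TH17 cells of the Dohh table the values of Psmb6 were 99.5, 108 and 108 CPM in WT and 218, 192 and 234 CPM in Dohh-/- libraries. Among Treg libraries of the Dohh table, WT held Psmb6 at 107, 152 and 114 CPM and Dohh-/- at 252, 240.4 and 263 CPM. Dohh-/- against WT gave Psmb6 log2 fold changes of 1.84 ± 0.28 in TH1 cells, 1.09 ± 0.27 in TH2 cells, 1.03 ± 0.27 in TH17 cells and 1.02 ± 0.27 in Treg cells, with edgeR adjusted p-values of 1.82e-05, 0.00257, 0.00321 and 0.00323. No pair of groups overlapped for Psmb6 in the Dohh table.

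Psmb7 encodes β2, the trypsin-like subunit (ENSMUSG00000026750.6, chr2:38588036-38644087, minus strand), and 11.8% of its exon bases overlap exons of Nek6 on the opposite strand. In TH1 cells, Psmb7 stood at 95.2, 102, 107 and 163 CPM in the WT and at 171, 227, 212 and 213 CPM in the Odc-/- libraries of the Odc table. In TH2 cells, Psmb7 stood at 115, 133, 133 and 178 CPM in the WT and at 229.5, 227 and 229 CPM in the Odc-/- libraries of the Odc table. In TH17 cells, Psmb7 stood at 111, 117, 109.9 and 149 CPM in the WT and at 149.5, 180.0, 178 and 165 CPM in the Odc-/- libraries of the Odc table. The groups did not overlap in these 3 subsets. In Treg cells, Psmb7 stood at 121, 149, 120.5 and 169 CPM in the WT and at 156, 162, 197 and 161 CPM in the Odc-/- libraries of the Odc table. Psmb7 had log2 fold changes (± SE) of 0.82 ± 0.15 in TH1 cells, 0.71 ± 0.16 in TH2 cells, 0.46 ± 0.15 in TH17 cells and 0.27 ± 0.15 in Treg cells of the Odc table, with edgeR adjusted p-values of 6.68e-05, 0.000459, 0.0127 and 0.114. In Treg cells the WT library numbered 4 lay above 3 of the 4 Odc-/- libraries, and the change did not pass. In TH1 cells of the Dohh table, Psmb7 was measured at 65.2, 70.7 and 97.01 CPM in WT and at 226, 386 and 131 CPM in Dohh-/- libraries. Psmb7 in the Dohh table stood at 84.2, 117 and 102 CPM in WT and 206, 198 and 226 CPM in Dohh-/- TH2 libraries. Both subsets were split cleanly by label. For TH17 cells of the Dohh table the values of Psmb7 were 86.8, 107 and 82.9 CPM in WT and 178, 158 and 113 CPM in Dohh-/- libraries. Among Treg libraries of the Dohh table, WT held Psmb7 at 109, 159 and 111 CPM and Dohh-/- at 193, 169.9 and 204 CPM. Dohh-/- against WT gave Psmb7 log2 fold changes of 1.67 ± 0.27 in TH1 cells, 1.05 ± 0.27 in TH2 cells, 0.70 ± 0.27 in TH17 cells and 0.58 ± 0.27 in Treg cells, with edgeR adjusted p-values of 4.68e-05, 0.00341, 0.0339 and 0.0718. The change in TH17 cells did not pass when any 1 of 4 libraries was left out (Dohh-/- 1 or 2, WT 1 or 3), at 0.56 to 0.66. In Odc-/- Treg cells the change passed without the WT library numbered 4, at 0.38.

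Psmb1 encodes the structural subunit β6 and was 1 of the 3 members with the smallest mean change among those that passed in at least 4 comparisons (ENSMUSG00000014769.9, chr17:15475021-15499751, minus strand). In TH1 cells, Psmb1 stood at 213, 219.5, 248 and 236 CPM in the WT and at 272, 247, 281 and 276 CPM in the Odc-/- libraries of the Odc table. In TH2 cells, Psmb1 stood at 228, 252, 251 and 268 CPM in the WT and at 260.5, 279 and 256 CPM in the Odc-/- libraries of the Odc table. In TH17 cells, Psmb1 stood at 175, 205, 184 and 187 CPM in the WT and at 214, 221, 267 and 238 CPM in the Odc-/- libraries of the Odc table. Only TH17 cells had groups that did not overlap. In Treg cells, Psmb1 stood at 172, 224, 177 and 211 CPM in the WT and at 220.1, 201, 275 and 227 CPM in the Odc-/- libraries of the Odc table. Psmb1 had log2 fold changes (± SE) of 0.23 ± 0.0967 in TH1 cells, 0.08 ± 0.10 in TH2 cells, 0.32 ± 0.0968 in TH17 cells and 0.24 ± 0.0966 in Treg cells of the Odc table, with edgeR adjusted p-values of 0.042, 0.495, 0.00808 and 0.0366. The calls in TH1 and Treg cells were lost with other scaling, without the filter and in DESeq2, at 0.17 to 0.20, and when any 1 of several libraries was left out, at 0.14 to 0.24. In TH1 cells of the Dohh table, Psmb1 was measured at 181, 192 and 233 CPM in WT and at 289, 553 and 291 CPM in Dohh-/- libraries. Psmb1 in the Dohh table stood at 241, 337 and 280.1 CPM in WT and 376, 311 and 331 CPM in Dohh-/- TH2 libraries. In TH1 cells all Dohh-/- libraries lay above WT, and in TH2 cells the groups were mixed. For TH17 cells of the Dohh table the values of Psmb1 were 229, 268 and 244 CPM in WT and 305, 267 and 401 CPM in Dohh-/- libraries. Among Treg libraries of the Dohh table, WT held Psmb1 at 248, 331 and 237 CPM and Dohh-/- at 323, 301 and 327 CPM. Dohh-/- against WT gave Psmb1 log2 fold changes of 0.90 ± 0.22 in TH1 cells, 0.25 ± 0.22 in TH2 cells, 0.39 ± 0.22 in TH17 cells and 0.22 ± 0.22 in Treg cells, with edgeR adjusted p-values of 0.00183, 0.368, 0.135 and 0.406. TH1 was the one subset of the Dohh table in which Psmb1 passed.

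The ATPases, Rpt1 to Rpt6, unfold substrates and push them into the core. Of their 48 tests 43 were higher, against 27.8% for all genes. Psmc1, Psmc2, Psmc3, Psmc4 and Psmc5 rose in all 8 comparisons, and the 5 tests that did not pass were all of Psmc6, or Rpt4. Psmc6 changed by 0.02, 0.16, 0.34 and -0.03 in Odc-/- and by 0.74, 0.34, 0.19 and 0.60 in Dohh-/- TH1, TH2, TH17 and Treg cells on the log2 scale, of which Odc-/- TH17 and Dohh-/- TH1 and Treg passed. Psmc2 changed by 0.76 to 1.199 and Psmc4 by 0.68 to 1.35 in Odc-/- cells, both with the higher values in TH1 and TH2 cells. Psmc3 and Psmc1 had the ranges 0.63 to 1.205 and 0.40 to 0.89 there. In Dohh-/- TH1 cells the 5 genes rose by 1.57 (Psmc2) to 2.23 (Psmc5).

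Psmc5 encodes the ATPase Rpt6 and had the largest mean change of the true subunits (ENSMUSG00000020708.12, chr11:106256154-106263120, plus strand). In TH1 cells, Psmc5 stood at 52.9, 58.8, 53.1 and 106 CPM in the WT and at 129.9, 213, 208 and 217 CPM in the Odc-/- libraries of the Odc table. In TH2 cells, Psmc5 stood at 59.4, 62.4, 56.9 and 96.1 CPM in the WT and at 211, 191 and 199.5 CPM in the Odc-/- libraries of the Odc table. In TH17 cells, Psmc5 stood at 81.9, 96.2, 86.8 and 139 CPM in the WT and at 152, 206, 204 and 191 CPM in the Odc-/- libraries of the Odc table. No groups overlapped, although the WT library numbered 4 stood above the other WT libraries each time. In Treg cells, Psmc5 stood at 50.7, 72.3, 51.04 and 122 CPM in the WT and at 171, 162, 212 and 167 CPM in the Odc-/- libraries of the Odc table. Psmc5 had log2 fold changes (± SE) of 1.505 ± 0.25 in TH1 cells, 1.55 ± 0.27 in TH2 cells, 0.90 ± 0.25 in TH17 cells and 1.26 ± 0.25 in Treg cells of the Odc table, with edgeR adjusted p-values of 2.93e-05, 2.92e-05, 0.00445 and 0.000117. The rise was 2.84-fold in TH1 cells and stayed under 2-fold in TH17 cells. Psmc5 levels in Dohh table TH1 cells were 49.4, 49.3 and 64.6 CPM in WT and 209, 448 and 109.6 CPM in Dohh-/- libraries. Its TH2 levels there were 54.99, 67.04 and 52.1 CPM in WT and 140.5, 179 and 233 CPM in Dohh-/- libraries. The Dohh-/- TH1 libraries spread widely, and the lowest of them lay above all WT libraries. Dohh table TH17 libraries held Psmc5 at 62.9, 61.8 and 52.5 CPM in WT and at 155, 141 and 209 CPM in Dohh-/-. WT Treg libraries of the Dohh table held Psmc5 at 54.3, 63.8 and 55.5 CPM and Dohh-/- Treg libraries at 168, 171 and 228 CPM. Against WT, Psmc5 in Dohh-/- libraries changed on the log2 scale by 2.23 ± 0.33 in TH1 cells, 1.66 ± 0.32 in TH2 cells, 1.51 ± 0.32 in TH17 cells and 1.71 ± 0.32 in Treg cells, with edgeR adjusted p-values of 1.49e-05, 0.000307, 0.000584 and 0.00016. The rise in Dohh-/- TH1 cells was 4.69-fold.

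**Figure D3:**
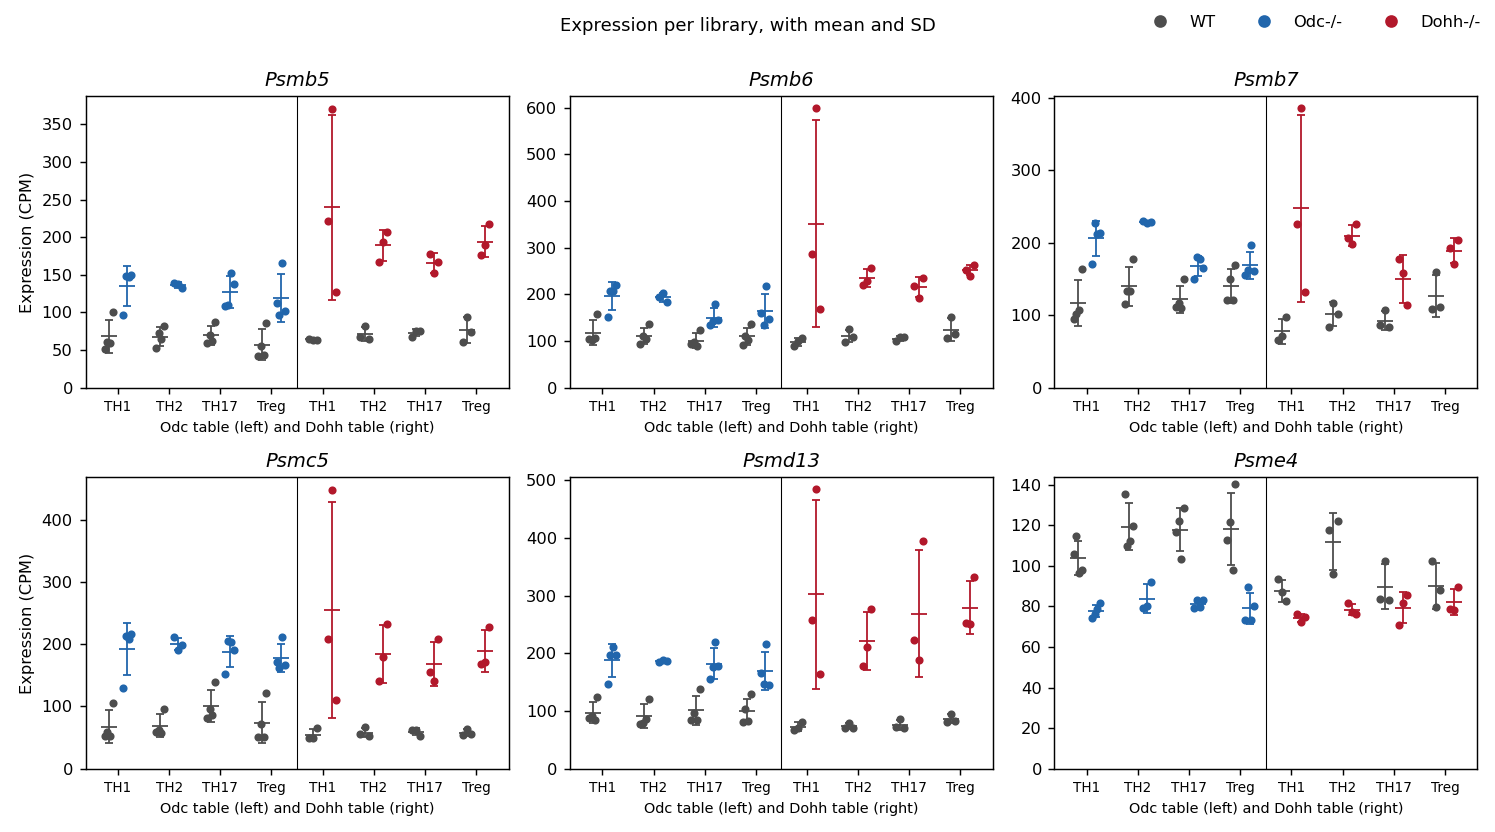
Expression (vertical axis, CPM, from 0) of the catalytic subunits Psmb5, Psmb6 and Psmb7 and of Psmc5, Psmd13 and Psme4 by subset (horizontal axis, Odc table left and Dohh table right of the line), each point a library with the group's mean and SD. For Psmc5 the Dohh-/- TH1 points run from 109.6 to 448.2 CPM, and Psme4 is the gene whose WT points lie higher.

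The non-ATPase subunits of the cap recognize ubiquitin, remove it and hold the lid together. Of their 88 tests 65 were higher, where 27.8% were for all genes. Psmd13, Psmd6 and Psmd14 rose in all 8 comparisons. Psmd14, or Rpn11, the deubiquitinase of the lid, changed by 0.41 to 0.74 in Odc-/- and 0.90 to 1.44 in Dohh-/- cells on the log2 scale. Psmd6, or Rpn7, changed by 0.60 to 1.13 and 0.80 to 1.504. The ubiquitin receptor Psmd4, or Rpn10, rose in the 4 Odc-/- subsets by 0.32 to 0.52 and, of the Dohh-/- subsets, in TH1 at 1.22. Of the large scaffolds, Psmd1, or Rpn2, rose by 1.05 and 1.37 in Odc-/- TH1 and TH2 cells and did not pass in TH17 and Treg cells at 0.45 and 0.43. In Dohh-/- cells Psmd1 rose by 1.21, 1.36 and 1.204 in TH1, TH2 and Treg cells and did not pass in TH17 cells at 0.25. Psmd2, or Rpn1, lay at 0.18 to 0.62 and 0.53 to 0.72.

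Of the 11 non-ATPase genes, 10 rose in TH1 and TH2, 5 in TH17 and 7 in Treg cells of the Odc table (29.1%, 29.9%, 25.6% and 32.9% of all genes), and 11, 8, 5 and 9 in the Dohh table (25.9%, 23.8%, 27.0% and 28.4%). Psmd7, or Rpn8, changed by 1.11, 1.31, 0.48 and 0.83 in Odc-/- TH1, TH2, TH17 and Treg cells, and passed in 3 of them. Psmd3, or Rpn3, lay at 0.27 and 0.18 in TH17 cells of the 2 tables, and Psmd11, or Rpn6, at 0.17 and 0.28, and none of these passed. Psmd12, or Rpn5, rose in 7 of 8 comparisons, with TH17 at 0.30 as the Odc-/- value that did not pass. Psmd8, or Rpn12, had the smallest mean change of the cap genes, with 0.15, 0.18, 0.26 and -0.13 in Odc-/- and 0.57, 0.14, -0.03 and -0.04 in Dohh-/- cells, and it passed in Odc-/- TH17 and Dohh-/- TH1 cells.

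Psmd13 encodes the lid subunit Rpn9 (ENSMUSG00000025487.14, chr7:140881968-140898643, plus strand), and 10.1% of its exon bases overlap exons of Sirt3. In TH1 cells, Psmd13 stood at 87.98, 91.3, 84.9 and 124 CPM in the WT and at 146, 198, 211 and 196 CPM in the Odc-/- libraries of the Odc table. In TH2 cells, Psmd13 stood at 77.5, 79.8, 86.1 and 121 CPM in the WT and at 184, 188 and 186 CPM in the Odc-/- libraries of the Odc table. In TH17 cells, Psmd13 stood at 84.9, 95.6, 83.9 and 139 CPM in the WT and at 155, 175, 219 and 177 CPM in the Odc-/- libraries of the Odc table. The Odc-/- libraries lay above all WT libraries in these subsets. In Treg cells, Psmd13 stood at 80.97, 103, 82.7 and 129 CPM in the WT and at 166, 146, 216 and 145 CPM in the Odc-/- libraries of the Odc table. Psmd13 had log2 fold changes (± SE) of 0.95 ± 0.18 in TH1 cells, 1.03 ± 0.19 in TH2 cells, 0.85 ± 0.18 in TH17 cells and 0.77 ± 0.18 in Treg cells of the Odc table, with edgeR adjusted p-values of 9.23e-05, 6.18e-05, 0.000454 and 0.00063. The rise was above 2-fold in TH2 cells and below it in the other subsets. Psmd13 levels in Dohh table TH1 cells were 66.6, 70.6 and 80.97 CPM in WT and 258, 484 and 165 CPM in Dohh-/- libraries. Its TH2 levels there were 70.2, 78.98 and 70.2 CPM in WT and 177, 210.0 and 277 CPM in Dohh-/- libraries. Every Dohh-/- library lay above every WT library. Dohh table TH17 libraries held Psmd13 at 71.6, 85.3 and 70.1 CPM in WT and at 223, 188 and 394 CPM in Dohh-/-. WT Treg libraries of the Dohh table held Psmd13 at 80.7, 94.8 and 83.3 CPM and Dohh-/- Treg libraries at 253, 251 and 332 CPM. Against WT, Psmd13 in Dohh-/- libraries changed on the log2 scale by 2.05 ± 0.30 in TH1 cells, 1.597 ± 0.29 in TH2 cells, 1.82 ± 0.29 in TH17 cells and 1.69 ± 0.29 in Treg cells, with edgeR adjusted p-values of 1.26e-05, 0.000185, 3.89e-05 and 6.57e-05. All 4 changes were above 2-fold, and in TH2 and TH17 cells Psmd13 was 1 of the 2 members with the largest change.

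The cap assembly chaperones, which hold ATPases until the ring closes, differed in how often they passed. Psmd9, or p27, rose in all 8 comparisons, by 0.64 to 0.98 in Odc-/- and 1.01 to 1.41 in Dohh-/- cells on the log2 scale, and 25.5% of its exon bases overlap Gm26745. Psmd5, or S5b, rose in TH1 and TH2 cells of both tables and in Dohh-/- Treg cells, by 0.41 to 0.72. Psmd10, or gankyrin, lay at 0.05, -0.05, 0.06 and 0.16 in Odc-/- cells and passed in none of them, and rose by 0.65 and 0.78 in Dohh-/- TH1 and TH17 cells.

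The activators cap the core in place of 19S and do not use ATP. Psme1 and Psme2 form PA28αβ, which interferon-γ induces, Psme3 forms the nuclear PA28γ, and Psme4 is PA200, a nuclear activator linked to the breakdown of acetylated histones. Their directions were mixed. Of 32 tests 17 were higher and 5 lower (27.8% and 25.2% of the tests of all genes), and all 5 were of Psme4. Psme3 rose in 7 comparisons, and the exception was Odc-/- TH17 cells at 0.45, where WT libraries stood at 176, 175, 169.9 and 264 CPM and Odc-/- libraries at 248, 296, 257 and 272 CPM. The WT mean of Psme3 in the Odc table was highest in this subset. In Odc-/- TH2 cells Psme3 went from 121, 104, 101 and 144 CPM in WT to 374, 282 and 333 CPM, a log2 fold change of 1.49 ± 0.25 (SE) with an edgeR adjusted p of 2.07e-05. It was the second largest change in that comparison and in Odc-/- Treg cells, where it was 1.22.

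Psme2 rose in TH1, TH2 and TH17 cells of both tables and not in Treg cells. Its log2 fold changes were 0.64, 0.80, 0.62 and 0.03 in Odc-/- and 1.06, 0.86, 1.52 and 0.29 in Dohh-/- TH1, TH2, TH17 and Treg cells. In TH17 cells it stood at 136, 141 and 144 CPM in WT and 396, 309.6 and 500.3 CPM in Dohh-/- libraries, and in Treg cells at 237, 349 and 278 CPM against 365, 330.2 and 361 CPM. The groups did not overlap in TH17 cells and overlapped in Treg cells. The 2 TH1 markers Ifng and Tbx21 summed to 141.7 to 418.1 CPM in Dohh-/- against 4.04 to 5.33 CPM in WT TH17 cells, and to 273.8 to 322.5 CPM against 8.203 to 10.5 CPM in Treg cells. The part of these markers in the Psme2 values was not tested.

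Psme1 (ENSMUSG00000022216.16, chr14:55578123-55581529, plus strand) was the other activator with a small mean change. In TH1 cells, Psme1 stood at 199, 229, 225 and 268 CPM in the WT and at 257, 289, 320.0 and 291 CPM in the Odc-/- libraries of the Odc table. In TH2 cells, Psme1 stood at 189, 230.2, 216 and 234 CPM in the WT and at 303, 292 and 286 CPM in the Odc-/- libraries of the Odc table. In TH17 cells, Psme1 stood at 148, 153, 153 and 156 CPM in the WT and at 163, 158, 221 and 173 CPM in the Odc-/- libraries of the Odc table. The groups overlapped by 1 library in TH1 cells and not in TH2 and TH17 cells. In Treg cells, Psme1 stood at 229, 262, 249 and 248 CPM in the WT and at 234, 218, 273 and 228 CPM in the Odc-/- libraries of the Odc table. Psme1 had log2 fold changes (± SE) of 0.33 ± 0.10 in TH1 cells, 0.43 ± 0.11 in TH2 cells, 0.23 ± 0.10 in TH17 cells and -0.05 ± 0.10 in Treg cells of the Odc table, with edgeR adjusted p-values of 0.00648, 0.00117, 0.0639 and 0.664. Psme1 rose in TH1 and TH2 cells, and in Treg cells the values were mixed. Psme1 levels in Dohh table TH1 cells were 199, 230.4 and 252 CPM in WT and 319, 705 and 321 CPM in Dohh-/- libraries. TH2 cells of that table had 245, 301 and 243 CPM in WT and 339, 346 and 362 CPM in Dohh-/- libraries. The groups did not overlap in either subset. Dohh table TH17 libraries held Psme1 at 197, 206 and 230.1 CPM in WT and at 377, 299 and 365 CPM in Dohh-/-. WT Treg libraries of the Dohh table held Psme1 at 298, 441 and 318 CPM and Dohh-/- Treg libraries at 365, 339 and 339.5 CPM. Against WT, Psme1 in Dohh-/- libraries changed on the log2 scale by 0.98 ± 0.23 in TH1 cells, 0.41 ± 0.23 in TH2 cells, 0.72 ± 0.23 in TH17 cells and -0.02 ± 0.23 in Treg cells, with edgeR adjusted p-values of 0.00131, 0.148, 0.0119 and 0.955. TH1 and TH17 cells passed, and the sign in Treg cells turned with the WT library numbered 2 left out, to 0.12. The call in TH17 cells was lost without the WT library numbered 1, at 0.67.

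Psme4 (ENSMUSG00000040850.17, chr11:30771726-30880361, plus strand) was the member that fell. In TH1 cells, Psme4 stood at 106, 115, 96.7 and 98.2 CPM in the WT and at 74.1, 76.4, 78.8 and 81.6 CPM in the Odc-/- libraries of the Odc table. In TH2 cells, Psme4 stood at 135, 109.6, 112 and 119.8 CPM in the WT and at 79.1, 80.1 and 92.2 CPM in the Odc-/- libraries of the Odc table. In TH17 cells, Psme4 stood at 117, 122, 104 and 129 CPM in the WT and at 79.3, 82.96, 79.5 and 83.4 CPM in the Odc-/- libraries of the Odc table. Every Odc-/- library lay below every WT library. In Treg cells, Psme4 stood at 113, 122, 98.05 and 140.2 CPM in the WT and at 73.2, 89.7, 73.5 and 80.3 CPM in the Odc-/- libraries of the Odc table. Psme4 had log2 fold changes (± SE) of -0.42 ± 0.0976 in TH1 cells, -0.51 ± 0.11 in TH2 cells, -0.53 ± 0.0971 in TH17 cells and -0.58 ± 0.0970 in Treg cells of the Odc table, with edgeR adjusted p-values of 0.000729, 0.000206, 9.7e-05 and 1.43e-05. Psme4 fell in all 4 subsets, to between 0.67 and 0.75 of the WT level, and the WT library numbered 4 was not the highest in TH1 or TH2 cells. Psme4 levels in Dohh table TH1 cells were 93.4, 86.97 and 82.7 CPM in WT and 76.04, 72.3 and 75.01 CPM in Dohh-/- libraries. TH2 cells of that table had 118, 96.01 and 122 CPM in WT and 81.5, 77.3 and 76.4 CPM in Dohh-/- libraries. Here the Dohh-/- libraries lay below WT in both subsets. Dohh table TH17 libraries held Psme4 at 83.6, 103 and 83.2 CPM in WT and at 70.9, 81.6 and 85.7 CPM in Dohh-/-. WT Treg libraries of the Dohh table held Psme4 at 102, 79.6 and 88.1 CPM and Dohh-/- Treg libraries at 78.5, 78.2 and 89.4 CPM. Against WT, Psme4 in Dohh-/- libraries changed on the log2 scale by -0.24 ± 0.13 in TH1 cells, -0.51 ± 0.13 in TH2 cells, -0.18 ± 0.13 in TH17 cells and -0.13 ± 0.13 in Treg cells, with edgeR adjusted p-values of 0.145, 0.00366, 0.268 and 0.408. The decrease passed in TH2 cells, and in TH17 and Treg cells the groups overlapped.

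Psmc3ip, the gene that is no subunit, had the largest mean change of all members (ENSMUSG00000019303.14, chr11:101091823-101095436, minus strand), and 21.2% of its exon bases overlap exons of Mlx on the opposite strand. Its levels were low. In TH1 cells, Psmc3ip stood at 5.78, 4.55, 5.95 and 6.51 CPM in the WT and at 9.51, 17.1, 17.3 and 17.2 CPM in the Odc-/- libraries of the Odc table. In TH2 cells, Psmc3ip stood at 4.90, 5.60, 4.68 and 7.43 CPM in the WT and at 14.97, 15.04 and 14.99 CPM in the Odc-/- libraries of the Odc table. In TH17 cells, Psmc3ip stood at 5.68, 4.80, 5.77 and 8.48 CPM in the WT and at 9.30, 15.8, 17.5 and 9.89 CPM in the Odc-/- libraries of the Odc table. The Odc-/- libraries lay above WT throughout, and in TH2 cells they differed little from each other. In Treg cells, Psmc3ip stood at 4.23, 7.34, 4.26 and 10.1 CPM in the WT and at 12.02, 12.2, 14.6 and 14.9 CPM in the Odc-/- libraries of the Odc table. Psmc3ip had log2 fold changes (± SE) of 1.42 ± 0.26 in TH1 cells, 1.41 ± 0.27 in TH2 cells, 1.08 ± 0.25 in TH17 cells and 1.05 ± 0.25 in Treg cells of the Odc table, with edgeR adjusted p-values of 5.4e-05, 8.19e-05, 0.00112 and 0.000734. Psmc3ip rose above 2-fold in each subset. In TH1 cells of the Dohh table, Psmc3ip was measured at 2.57, 3.59 and 4.82 CPM in WT and at 25.6, 33.6 and 11.2 CPM in Dohh-/- libraries. Psmc3ip in the Dohh table stood at 3.79, 6.56 and 3.81 CPM in WT and 11.5, 13.04 and 17.7 CPM in Dohh-/- TH2 libraries. The groups were apart by label in both. For TH17 cells of the Dohh table the values of Psmc3ip were 3.15, 2.54 and 1.85 CPM in WT and 15.9, 12.4 and 14.1 CPM in Dohh-/- libraries. Among Treg libraries of the Dohh table, WT held Psmc3ip at 3.16, 4.25 and 2.47 CPM and Dohh-/- at 20, 19.8 and 22.1 CPM. Dohh-/- against WT gave Psmc3ip log2 fold changes of 2.68 ± 0.35 in TH1 cells, 1.58 ± 0.33 in TH2 cells, 2.47 ± 0.35 in TH17 cells and 2.66 ± 0.35 in Treg cells, with edgeR adjusted p-values of 3.48e-06, 0.000721, 9.91e-06 and 2.4e-06. In TH1, TH17 and Treg cells this was the largest change of any member, and since it rose in all 8 comparisons, it is 1 of the 39 members in each count of higher members by comparison.

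Levels between genes were compared as CPM per kilobase of transcript. In WT groups the median member stood at 58.4 to 77.2 CPM per kb. The highest was Psme1 in the 4 Dohh table subsets, at 189.9 to 316.9, and Psme2, Psme1 or Psmb2 in the Odc table, at 155.4 to 259.3. Psmc3ip was the lowest in all 8 WT groups, at 1.95 to 5.03 CPM per kb. In deficient groups the median member was at 108.2 to 178.7 CPM per kb, and the highest was Psmb3, Psme2 or Psma7.

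WT subsets were compared to see whether helper cells differ in these genes without any deletion. Over the 4 WT subsets 12 of 39 members differed in the Odc table (30.8%, against 71.1% of all genes) and 4 in the Dohh table (10.3%, against 40.1%), by edgeR's quasi-likelihood F test. The 4, Psma3, Psme1, Psme2 and Psme3, were also among the 12. Psme2 had its highest mean in Treg and its lowest in TH17 cells in both tables (249.5 and 119.9 CPM in the Odc table, 287.8 and 140.1 CPM in the Dohh table). Its edgeR adjusted p was 6.02e-07 and 0.0024. Psme1 had the same highest and lowest subsets, at 247.1 and 152.6 CPM and at 352.3 and 211.2 CPM. Psma3 was highest in TH2 cells in both tables, at 162.2 and 151.1 CPM. The order of Psme3 was not the same, since TH17 was the highest WT subset in the Odc table, at 196.4 CPM, and the lowest in the Dohh table. The others of the 12 were Psmb1, Psmb4, Psmc1, Psmc4, Psmc6, Psmd1, Psmd6 and Psmd8. Libraries of equal number deviated together across the 4 WT subsets of the Odc table, with correlations above 0.1 in 24 of 24 pairs. That number was then used as a block within each genotype, which was added after the data were seen. With this block, 28 members differed in the Odc table (71.8%, against 81.5% of all genes), the 12 among them. In the Dohh libraries, 3 members differed with it (7.69%, against 41% of all genes), and Psme1 no longer passed. With 1 block for each number over both genotypes 20 differed in the Odc table, and without the WT libraries numbered 4 also 20 (76.7% and 70.5% of all genes).

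Whether the effect of a deletion depended on the subset was asked with an interaction term of label and subset. By edgeR, 3 of 39 members passed in the Odc table (7.69%, against 34.8% of all genes) and 1 in the Dohh table (2.56%, against 17.9%). The 3 were Psmc6, Psme1 and Psme2, with edgeR adjusted p-values of 0.043, 0.0438 and 0.0127, and the 1 was Psme2, at 0.0335. For Psme1 and Psme2 the value in Odc-/- Treg cells was the lowest of the 4, at -0.05 and 0.03, and for Psmc6 that in TH17 cells the highest, at 0.34. These counts depend on the fit and rest on few libraries. With the replicate number as a block within each genotype the Odc count was 21 (53.8%, against 52.9% of all genes), with these 3 among them, and with 1 block for each number over both genotypes it was 14 (43.2% of all genes). The Dohh count was 1 in both, against 19% of all genes each time. Without the WT libraries numbered 4 the Odc count was 17 (40.9% of all genes), and without the libraries numbered 3 the Dohh count was 17 (19.2% of all genes).

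The deficiencies were compared with each other by the difference of their effects in 1 fit of both tables, each effect taken against its own WT libraries. The difference, Dohh-/- effect minus Odc-/- effect, passed with a positive sign for 16 of 39 members in TH1 cells (9.88% of 14559 genes tested), 7 in TH17 (11.5%) and 10 in Treg cells (13.0%). It passed with a negative sign for 0 (9.18%, 10.4% and 13.8% of genes). In TH2 cells 0 members differed (7.68% of genes were higher and 8.39% lower), and 1 had an unadjusted p below 0.05. In TH1, TH17 and Treg cells also 0 members had a negative difference at an unadjusted p below 0.05, and DESeq2 was not run on this difference. The median difference was 0.65, 0.10, 0.40 and 0.47 on the log2 scale in TH1, TH2, TH17 and Treg cells. Psmd13 and Psmc3ip passed in each of TH1, TH17 and Treg cells. For Psmd13 the difference was 1.13 ± 0.33 (SE), 1.02 ± 0.33 and 0.96 ± 0.33, with edgeR adjusted p-values of 0.0128, 0.0211 and 0.0258. For Psmc3ip it was 1.29 ± 0.42, 1.44 ± 0.42 and 1.64 ± 0.41, with edgeR adjusted p-values of 0.0244, 0.0113 and 0.00219.

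The other members that passed in TH1 cells were Psma2, Psma3, Psma6, Psmb1, Psmb3, Psmb4, Psmb5, Psmb6, Psmb7, Psmc6, Psmd4, Psmd10, Psmd14 and Psme1. They thus held 6 of the 7 β subunits and all 3 catalytic ones, and the differences ran from 0.62 for Psmd10 to 1.12 for Psmb6. In TH17 cells the others were Psma1, Psma3, Psmd10, Psme2 and Psme4, and in Treg cells Psma1, Psmc1, Psmc6, Psmd2, Psmd5, Psmd12, Psmd14 and Psme4. For Psme4, which fell in Odc-/- cells, the positive differences of 0.41 and 0.48 stand for a smaller decrease in Dohh-/- cells. Psmc5 did not pass in any subset, with differences of 0.75 ± 0.40 (SE), 0.10 ± 0.42, 0.66 ± 0.40 and 0.47 ± 0.40. The TH1 count depended on single replicate numbers, with 0 members left without the libraries numbered 2, 1 without those numbered 1, 8 without those numbered 4 and 30 without those numbered 3, against 1.88% to 12.7% of all genes. In TH17 cells the 7 fell to between 2 and 5 without the libraries of 1 number (5.48% to 8.74% of all genes), and in Treg cells the 10 fell to between 2 and 7 (at least 6.98% of all genes each time). Without the 4 Dohh-/- libraries with most myeloid RNA, 2 members were left in each (3.73% and 8.98%). Over these 39 genes the Odc-/- and Dohh-/- log2 fold changes had Pearson correlations of 0.805, 0.817, 0.802 and 0.814 in TH1, TH2, TH17 and Treg cells, as a description over genes, which share libraries and are not independent replicates.

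**Figure D4:**
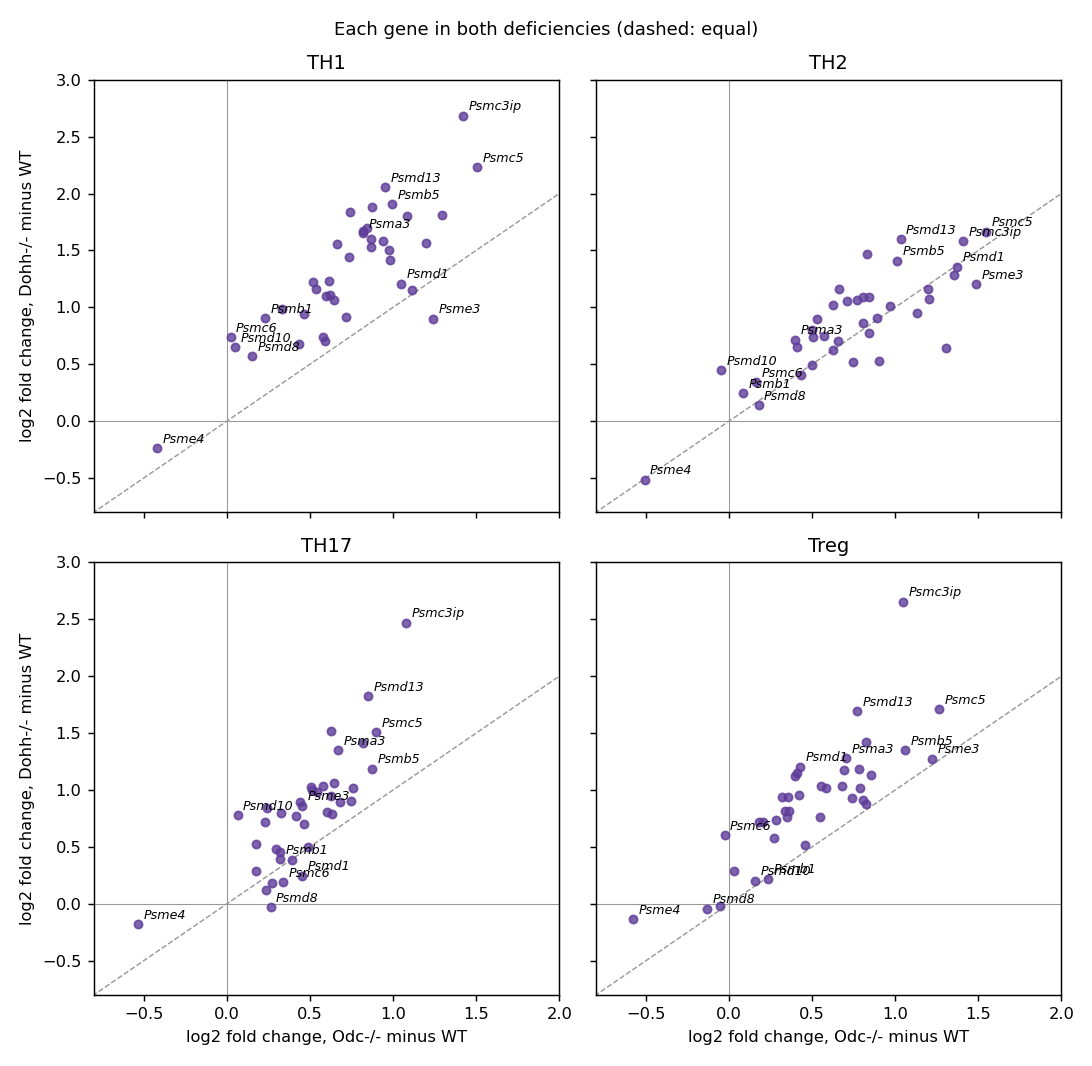
Log2 fold change of each of the 39 members in Odc-/- (horizontal axis) and Dohh-/- cells (vertical axis), both against their own WT, in each subset, with a dashed line where both are equal. Most points lie above the line in TH1, TH17 and Treg cells and around it in TH2 cells, with median differences of 0.65, 0.40, 0.47 and 0.10, and Psme4 is at the lower left.

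Other genes of the pathway were read from a list of 28. Beside the counts below, 27.8% of the tests of all genes over the 8 comparisons were higher and 25.2% lower. Of the 12924 genes tested in both tables, 6.1% rose in all 8. Of the immunoproteasome catalytic subunits, which replace β1, β2 and β5 in immune cells, Psmb10 rose in all 8 comparisons, by 0.83 to 1.43 in Odc-/- and 1.87 to 2.29 in Dohh-/- cells on the log2 scale. Psmb8 and Psmb9 rose in 6 each. Of the 4 cap partners without a Psm symbol, Uchl5, a deubiquitinase of the cap, rose in 8 (0.59 to 1.99), Usp14, a second one, in 7, and the ubiquitin receptor Adrm1 and the small subunit Sem1 in 6 each. Among 6 assembly factors, Pomp, the chaperone that matures the core, rose in 8 (0.60 to 1.64), Psmg2 and Psmg3 in 7, Psmg4 in 5, and Psmg1 and Psmf1, an inhibitor of the core listed with them, in 4 each. The median of the 3 immunoproteasome genes ran from 0.09 in Odc-/- Treg to 1.27 in Dohh-/- TH17 cells, that of the 4 cap partners from 0.60 to 1.19 and that of the 6 assembly factors from 0.37 to 0.95.

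The median of the 5 regulators of subunit transcription lay between -0.19 and 0.07 in the 8 comparisons. For these lists too, 27.8% of the tests of all genes were higher and 25.2% lower. Nfe2l1, which encodes NRF1, did not pass, with edgeR adjusted p-values of 0.0698 to 0.915 and values from -0.19 to 0.16. Ddi2, the protease that frees NRF1, fell by 0.81 in Odc-/- TH17 and by 1.27 and 1.21 in Dohh-/- TH17 and Treg cells on the log2 scale, and Ngly1, which deglycosylates it, and Nfe2l2 fell in 3 comparisons each. Vcp, the ATPase that extracts NRF1 from the membrane and also serves the proteasome, rose in all 8 (0.38 to 1.002). Of the shuttle factors, which bring ubiquitylated proteins to the cap, Rad23b, Ubqln1, Ubqln2 and Ubqln4 all rose in Odc-/- TH1 and TH2 cells (29.1% and 29.9% of all genes). Ubqln4 rose in the 4 Odc-/- subsets and did not pass in the Dohh-/- subsets, where the edgeR adjusted p was 0.241 to 0.48 and it lay at -0.23 to 0.21. The difference of the Dohh and Odc effects on Ubqln4 was -0.76 ± 0.20 (SE) in TH1, -0.84 ± 0.21 in TH2, -0.21 ± 0.20 in TH17 and -0.81 ± 0.20 in Treg cells, with edgeR adjusted p-values of 0.00628, 0.00386, 0.491 and 0.00188 in the joint fit. It thus passed in 3 subsets and not in TH17 cells. Of the ubiquitin genes Ubb and Rps27a rose in 3 comparisons each, and the activating enzyme Uba1 fell in Dohh-/- TH17 and Treg cells. Antizyme 2, Oaz2, which targets ODC to the proteasome, fell in all 8, by 0.71 to 1.66 on the log2 scale, and the antizyme inhibitor Azin1 rose in 6. Antizyme 1, Oaz1, lay at -0.15 to -0.31 in Odc-/- cells, where it did not pass, and at 0.30 to 0.76 in Dohh-/- cells, where it rose in TH1 cells with an edgeR adjusted p of 0.00401.

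**Figure D5:**
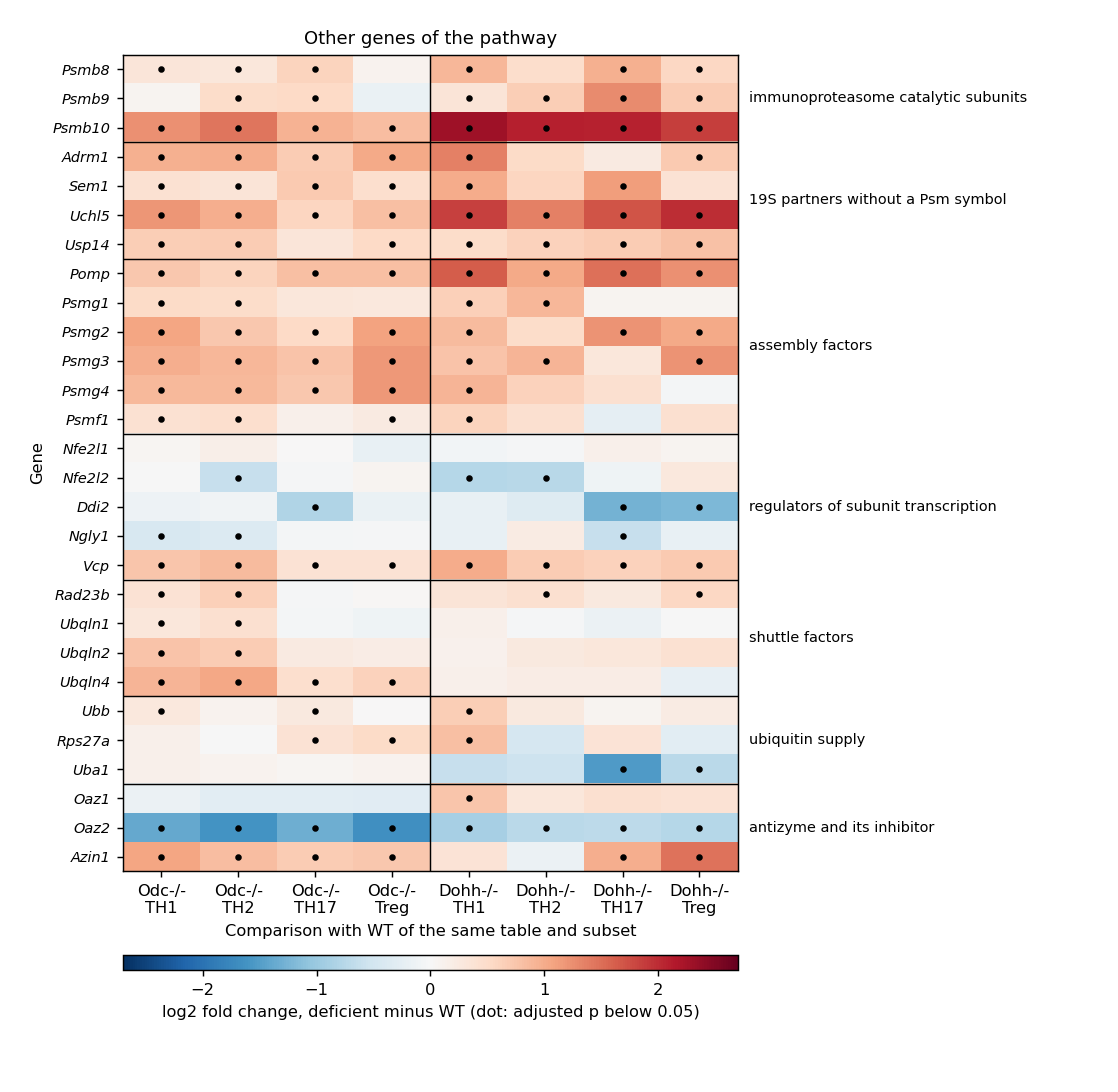
Log2 fold change (color, deficient minus WT) of the 28 other genes of the pathway (vertical axis, grouped by list) in the 8 comparisons (horizontal axis), with a dot where the edgeR adjusted p was below 0.05. Psmb10, Uchl5, Pomp and Vcp have 8 dots each and are higher, Oaz2 has 8 and is lower, and Nfe2l1 has 0.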

How the data were processed

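RNA of CD4+ T cell cultures was measured by stranded mRNA sequencing (TruSeq stranded mRNA, Illumina HiSeq), and the labels' processing notes name STAR, featureCounts, deepTools, DESeq2 and mm10. The authors trimmed and mapped the reads, counted them per gene and deposited whole-number counts in one table per line, without normalization. Versions, annotation release, strand setting and the handling of multi-mapped reads are not given in the sources used here, so values of overlapping genes may share reads. Per the labels, 56 samples were made, of which 55 are analysed here (16 WT and 15 Odc-/-, 12 WT and 12 Dohh-/-). TH2 Odc-/- replicate 1 was not analysed here.

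Gene symbols came from GENCODE M21 (GRCm38), in which 47310 of 47937 IDs were found. Some items are not reported here. Members and lists were chosen with earlier results of these data known. Each table was filtered with filterByExpr, scaled by TMM and fitted with edgeR 4.0.16 (quasi-likelihood, robust, 1 mean per group, all 8 groups), which tested 13839 and 13897 genes, and a joint fit of both tables tested 14559. P-values were adjusted by Benjamini-Hochberg over all genes tested, with a threshold of 0.05, and they measure only the spread between these samples. WT libraries of the Odc table serve the Odc-/- comparisons and those of the Dohh table the Dohh-/- comparisons. CPM used the TMM-scaled library size, and 3 counts correspond to 0.226 to 0.499 CPM. Genes given in full were Psmb5, Psmb6 and Psmb7, the 3 members with the largest and the 3 with the smallest mean change among those that passed in at least 4 of 8 comparisons. Other named members were those with the 2 largest and 2 smallest passing changes of a comparison, those above 2-fold, and the rest by class, chosen after their values were seen. The labels do not say that a replicate number marks a shared mouse. Deviations of equal numbers across subsets of 1 genotype correlated at 0.206 to 0.576 in WT and 0.0339 to 0.501 in Odc-/- libraries of the Odc table, and at 0.00521 to 0.314 in WT and -0.265 to 0.644 in Dohh-/- libraries of the Dohh table. They were above 0.1 in 24 of 24 WT and 20 of 21 Odc-/- pairs, and in 15 of 18 WT and 13 of 18 Dohh-/- pairs of the Dohh table. By the data the numbers thus tend to pair the subsets of 1 genotype, most clearly in WT libraries of the Odc table. Alternatives were other scaling (RLE), other filters, DESeq2 1.42.0, only the 2 groups compared, a stricter threshold, a replicate block (also within genotype) and leaving out libraries. Scripts were tested on simulated counts. Fits ran in R 4.3.3, and tables and plots in Python 3.11.15.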

Additional observations from a re-analysis of the deposited data

Results flagged for a closer look

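In groups of 4 libraries, a library whose gap to its neighbour exceeded Dixon's 95% critical value was marked, which chance does in about 1 in 20 groups. The low Odc-/- TH1 library was replicate 1, with Psmb5 at 95.89 CPM, Psmc3ip at 9.513 CPM, Psmc5 at 129.9 CPM and a member share of 0.57566%. The WT library numbered 4 of the Odc table was high for Psmb6 at 157.4 CPM, Psmc5 at 106.1 CPM and Psmd13 at 124.4 CPM in TH1 cells and for Psmc5 at 96.07 CPM in TH2 cells. In Odc-/- Treg cells Psmb7 reached 196.6 CPM, and the highest member share was 0.73516%.

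Several effects differed between the deficiencies by edgeR's test of the difference (log2, Dohh-/- minus Odc-/-). In TH1 cells this held for Psmb1 (0.6948), Psmb5 (0.9341), Psmb6 (1.121), Psmb7 (0.8801), Psmc3ip (1.29), Psmd13 (1.129) and Psme1 (0.6757). In TH17 cells it held for Psmc3ip (1.438), Psmd13 (1.022) and Psme4 (0.4076), and in Treg cells for Psmc3ip (1.641), Psmd13 (0.9574) and Psme4 (0.4798). The effect of Odc deficiency on Psme1 differed between subsets, with an edgeR adjusted p of 0.0438.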

How the results depend on the processing

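Median log2 fold changes of the members kept their direction in 111 of 111 alternatives. Leaving out 1 library gave medians of 0.96 to 1.525 in Dohh-/- TH1 cells, against 1.228 with all libraries. In Odc-/- TH17 and Treg cells they were 0.4122 to 0.6293 and 0.3401 to 0.6018, against 0.4636 and 0.4253. In Dohh-/- TH17 cells the range was narrower, from 0.7919 to 0.865. The count of higher members stayed within 1.5 times its value in 118 alternatives and left that range in 9. Above 2-fold, 8, 11, 1 and 4 members were higher in Odc-/- TH1, TH2, TH17 and Treg cells and 0 were lower, and in Dohh-/- TH2, TH17 and Treg cells 17, 11 and 17 were higher, with 0 lower in TH2. Leaving out 1 library gave 34 to 35, 33 to 34, 22 to 32 and 20 to 32 higher members in the Odc and 35 to 38, 25 to 31, 25 to 29 and 28 to 31 in the Dohh comparisons. Without the 4 Dohh-/- libraries with most myeloid RNA, 15 members were higher in TH17 and 18 in Treg cells, where fewer libraries remain.

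The numbers do not pair deficient with WT libraries of a subset: their deviations correlated at -0.0858 to 0.196 in the Odc and -0.0272 to 0.136 in the Dohh table. With the replicate block, 35 members were higher in Odc-/- TH17 and 32 in Treg cells, where 25.6% and 32.9% of all genes were higher without it. Psme1 in Dohh-/- Treg cells was at 0.002689 in place of -0.02. The Odc effect differed by subset for 14 members (43.2% of all genes), and WT subsets of the Odc table for 20 (76.7%). With the replicate block within genotype these counts were 21 (52.9%) and 28 (81.5%).

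Counts of members in the other tests moved more, and the cause was not tested. The Odc effect differed by subset for 3 members, for 7 under RLE, 1 with no filter, 17 without the 4 WT libraries numbered 4 (WT 4 below), 0 at an adjusted p below 0.01, and 0 to 8 without 1 replicate number (libraries of both labels). The Dohh effect differed for 1, for 0 without the myeloid-rich libraries and at 0.01, and for 0 to 17 without 1 number. WT subsets of the Odc table differed for 12, for 20 without WT 4, 6 at 0.01 and 5 to 17 without 1 number. Those of the Dohh table differed for 4, for 2 at 0.01 and 2 to 5 without 1 number. The Dohh minus Odc effect passed for 16 in TH1 cells, 9 with no filter, 9 without WT 4, 2 at 0.01 and 0 to 30 without 1 number. In TH2 cells 1 member differed without WT 4, with a negative difference. In TH17 cells the 7 became 2 without the myeloid-rich libraries, 1 at 0.01 and 2 to 5 without 1 number, and in Treg cells the 10 became 2, 2 and 2 to 7. Psme1 in Dohh-/- Treg cells turned positive in 3 alternatives, with -0.1824 to 0.1233 when 1 library was left out and 0.01591 without the myeloid-rich libraries. The promoter motif TGACTCA was in 1 member and in 0 within 100 bases. Of the named genes, 959 values kept their call, 29 lost it and 8 gained it. Psmb6 in Dohh-/- TH17 and Treg cells lost its call without the myeloid-rich libraries, at 1.06 and 0.99. At this depth (at least 5905374 counts) Psma8 and Psmb11 could not be tested.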
